A study of Mus musculus with 12 samples.

Results

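The comparison described here is that of gastrocnemius, a hindlimb calf muscle, between mice without *Cox6a2* (KO) and wild type (WT) mice. It rests on 6 of the 12 arrays of the series, 3 for each genotype, and on all 19938 genes that had a probe set with a single gene symbol among 35556 probe sets, each gene being represented by its brightest such probe set. All mice were male, 10 to 12 weeks old and of the strain given as C57Bl6, and they were fed a regular diet. The KO mice lacked *Cox6a2* in the whole body and carried no other engineered allele named in the labels. The WT mice were age- and sex-matched C57BL/6J animals from a commercial supplier and are not stated to be littermates of the KO mice, so that the genotype and any difference in strain background cannot be told apart. The other 6 arrays were made from diaphragm according to their labels and enter here through the estimate of the spread. The arrays are called biological replicates in their titles, but neither the titles nor the methods say whether each came from its own mouse, and the p-values measure the spread between these arrays.

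Cytochrome *c* oxidase, or complex IV, is the last enzyme of the mitochondrial respiratory chain and passes electrons to oxygen while pumping protons. Its subunit 6A exists in a form of heart and skeletal muscle, COX6A2, and a form of most other tissues, COX6A1, and is known as a site through which adenine nucleotides regulate the enzyme. The study asked how its loss changes the metabolism of skeletal muscle in mice that stay lean, and the arrays addressed which genes differ in expression.

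The deleted gene was the lowest of all genes relative to WT. The log2 signal of *Cox6a2* was 11.84, 11.65 and 11.73 on the 3 WT arrays and 6.71, 7.18 and 6.91 on the 3 KO arrays. Every KO array lay far below every WT array, a difference of -4.81 on the log2 scale (limma, standard error 0.13, adjusted p = 2.5e-11), or 28.0-fold, while the exact permutation test of 3 arrays against 3 (two-sided) gave p = 0.1, the smallest it allows. Where the probes of this probe set lie relative to the deleted part of the gene was not determined. Its paralog *Cox6a1* had signals of 7.67, 7.33 and 7.48 in WT and of 7.73, 7.85 and 7.99 in KO. The KO arrays of *Cox6a1* were the higher ones without overlap, but the difference of 0.36 did not pass the test over all genes (limma, adjusted p = 0.30).

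Genes that define skeletal muscle, such as *Acta1*, *Ckm* and *Ttn*, were compared first. All 10 were measured, none passed the test between genotypes, and their median difference was 0.05. These values compare the genotypes and do not show which muscle was sampled. Correlations over all genes were 0.9912 to 0.9933 among the WT arrays, 0.9944 to 0.9951 among the KO arrays and 0.9876 to 0.9922 between them. *Hoxc10*, a gene of hindlimb position, averaged 8.44 in WT and 8.53 in KO gastrocnemius, 8.68 on the arrays labelled WT diaphragm and 4.18 in KO diaphragm, so that the arrays labelled WT diaphragm resembled gastrocnemius in this gene. For that reason a fit without those arrays is given below wherever it changed a count by more than 1.5 times.

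Of the 19938 genes, 81 were higher in KO gastrocnemius (0.406% of those tested) and 37 were lower (0.186%), 118 in all (0.592%), by limma with Benjamini-Hochberg adjustment at an adjusted p under 0.05. The differences were small: 16 higher and 5 lower genes exceeded 2-fold, and the median difference of called genes was 0.63 for those that rose and -0.60 for those that fell on the log2 scale. At an unadjusted p under 0.05, 1617 genes (8.11%) were higher and 1662 (8.34%) lower. For all 118 called genes the arrays of the genotypes were separate, which was so for 12.3% of all genes with KO above WT and for 11% with KO below WT. Of the called genes 68.6% were higher, and after median centring of the arrays, which moved the median of all genes from -0.01 to 0.04, 86.6% were. Without the arrays labelled WT diaphragm, 20 genes were called lower. The counts also depended on single arrays. Leaving out WT replicate 1, 2 or 3 gave 29, 45 and 36 higher genes, of which 25, 31 and 31 were among the 81. Leaving out KO replicate 1, 2 or 3 gave 24, 26 and 26, of which 22, 22 and 25 were. Among the genes named in the text, 17 kept their call in every limma fit tried, namely *Cox6a2*, *Fos*, *Zfp36*, *Nnt*, *Gdap1*, *Tfrc*, *Iqgap2*, *Ehd3*, *Plpp4*, *Hddc3*, *Id1*, *Me3*, *Trim12a*, *Tpbgl*, *Cacng7*, *Slc7a2* and *Hbq1b*. Of the called genes named in the text, those whose call was lost in 9 or more of the 15 other limma fits were *Acot2*, *Sik1*, *Kbtbd12*, *Rccd1*, *Otud1*, *Runx1*, *Mmut* and *Dnajb1*.

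**Figure D1:**
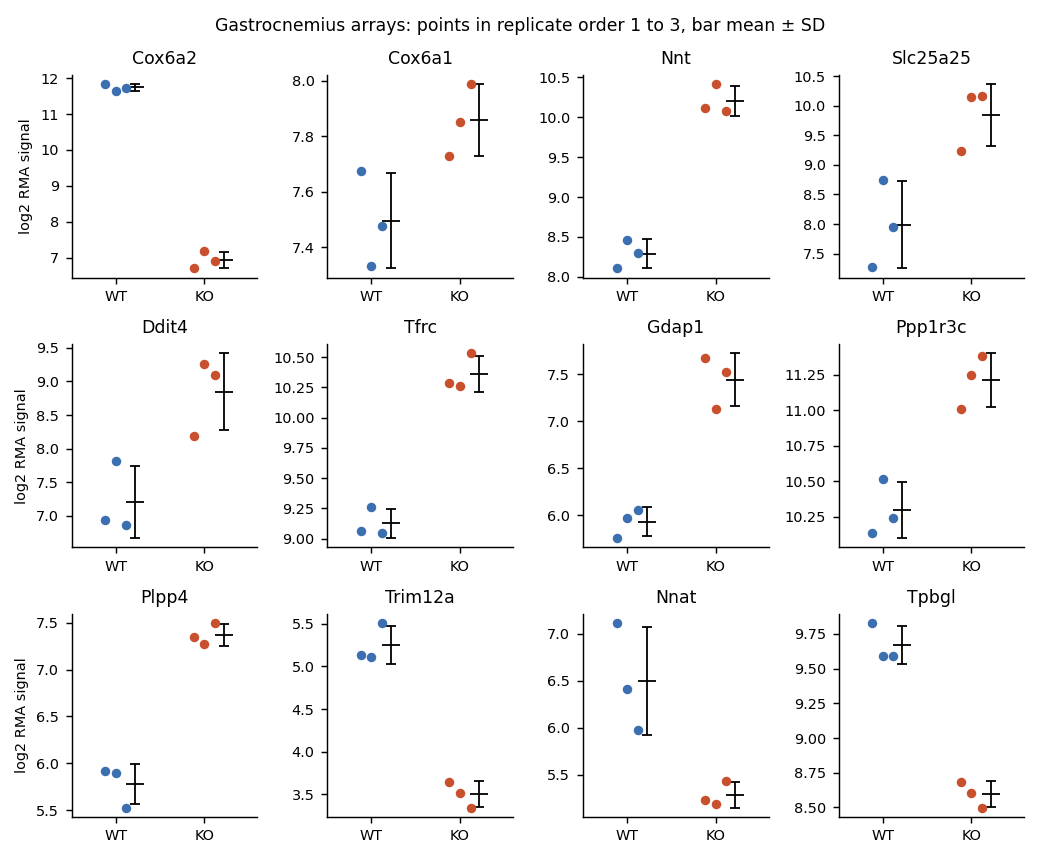
Log2 RMA signal (vertical axes, a separate scale for each gene) of 12 genes on the 3 WT and 3 KO gastrocnemius arrays (horizontal axes), where points are arrays in replicate order and the bars show mean ± SD. The groups do not overlap for any of these genes, while WT replicate 2 stands nearest to the KO arrays for *Slc25a25* (8.75) and *Ddit4* (7.82).

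Of the gene lists described here, that of immediate early genes held the most called genes. These genes are transcribed within a short time of a stimulus from factors already present in the cell, and in muscle they are known for their response to contraction and to stress. Of 36 listed and measured members, 8 rose and none fell, beside 0.406% of all genes that rose. This list was chosen with earlier results of these data known, so that its counts are a description and not a test. The median difference of the list was 0.46, beside -0.01 over all genes, an unadjusted p under 0.05 was reached by 19 members on the higher side and 2 on the lower (beside 8.11% and 8.34% of all genes), and 17 members had all KO arrays above all WT arrays while 2 had them below (beside 12.3% and 11% of all genes). The members ran from *Ankrd1*, named for its place at the low end, at -0.78, to *Fos*, at 2.21, so that the list did not move as a whole. Summed over the list, the linear signal was 7981 to 9414 on the WT arrays and 12450 to 13910 on the KO arrays.

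*Fos*, which encodes a subunit of the transcription factor AP-1, had the highest difference of all genes. Its log2 signals were 6.62, 6.28 and 6.29 in WT and 8.89, 8.77 and 8.18 in KO, with the lowest KO array still above every WT array. The rise was 2.21 (limma, standard error 0.24, adjusted p = 4.8e-04), a 4.64-fold change. *Fosb*, its relative in the same factor, went from 6.15, 5.82 and 5.99 to 7.05, 7.13 and 6.66. It rose by 0.96 (adjusted p = 0.0205), less than *Fos* but likewise with no overlap.

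*Egr1* encodes a zinc finger transcription factor. Its signals of 6.51, 6.21 and 6.21 in WT compared with 8.04, 7.90 and 7.44 in KO, a rise of 1.49 (limma, standard error 0.25, adjusted p = 0.0187). In both *Fos* and *Egr1*, KO replicate 3 was the lowest of the KO arrays and WT replicate 1 the highest of the WT arrays. *Csrnp1*, another nuclear protein of this class, had 6.13, 6.12 and 5.92 in WT and 6.62, 6.94 and 6.63 in KO and rose by 0.67 (adjusted p = 0.0181).

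*Dusp1* encodes a phosphatase that inactivates MAP kinases, and its signals were 9.89, 9.93 and 9.92 in WT and 10.97, 11.28 and 10.996 in KO. The WT arrays lay close together, and the rise was 1.17 (limma, standard error 0.20, adjusted p = 0.0224). *Zfp36* encodes tristetraprolin, which binds AU-rich messages and promotes their decay. It went from 6.75, 7.01 and 6.95 to 8.02, 8.37 and 7.81, a rise of 1.16 (limma, standard error 0.16, adjusted p = 0.0054). Both rose by about the same amount, more than 2-fold.

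The remaining called members, *Sik1* and *Klf2*, are named because they complete the 8 and were chosen after their values were seen. *Sik1*, a salt-inducible kinase, had 7.45, 8.26 and 7.48 in WT and 8.53, 8.70 and 8.89 in KO, where WT replicate 2 came close to the KO arrays, and rose by 0.98 (adjusted p = 0.0432). *Klf2*, a Krüppel-like transcription factor, had 8.38, 8.38 and 8.29 in WT and 9.18, 8.88 and 8.89 in KO and rose by 0.63 (adjusted p = 0.0319). Some uncalled members had differences at least as large as that of *Klf2*, and those named were chosen after their values were seen. Among them were *Nr4a3* with 1.48 (adjusted p = 0.117), *Btg2* with 1.14 (adjusted p = 0.0637) and *Nr4a1* with 0.94 (adjusted p = 0.064), all with KO arrays above WT arrays.

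**Figure D2:**
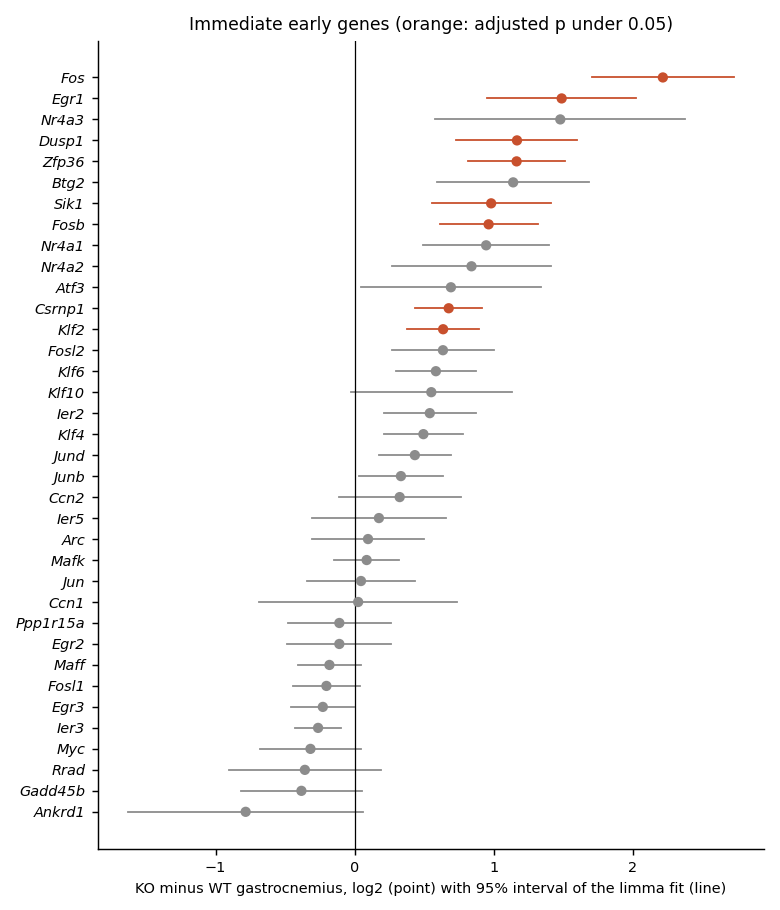
Difference KO minus WT gastrocnemius on the log2 scale (horizontal axis) for the 36 immediate early genes (vertical axis), where points are limma estimates from 3 arrays per group, lines are their 95% intervals and orange marks an adjusted p under 0.05. The 8 called genes lie between 0.63 and 2.21, and 10 members have negative estimates.

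How many immediate early genes passed the test depended on the arrays and the fit. In the other limma fits on all 6 gastrocnemius arrays, between 6 and 11 were called higher. Leaving out WT replicate 1, 2 or 3 gave 5, 4 and 2, and leaving out KO replicate 1, 2 or 3 gave 3, 2 and 5. The median of the list stayed between 0.39 and 0.54 in all fits.

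Sequence upstream of the start was examined because the called genes of this list moved together. RefSeq (GRCm38.p6) gave a promoter for 26 of the 36 members, among them 6 of the 8 called ones, and for 27025 genes in all, and the 150 bases before the start were searched. The motifs were TGACGTCA, the palindromic cyclic AMP response element, TGACG on either strand, which is its core and is contained in it, and the CArG box by its usual pattern, to which serum response factor binds. Windows of 4 called genes are shown to let the matches be seen, with capitals marking them.
Fos, chr12:85473740-85473889, plus strand: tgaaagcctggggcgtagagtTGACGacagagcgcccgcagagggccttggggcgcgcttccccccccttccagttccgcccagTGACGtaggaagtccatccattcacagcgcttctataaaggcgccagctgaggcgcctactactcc
Fosb, chr7:19310046-19310195, minus strand: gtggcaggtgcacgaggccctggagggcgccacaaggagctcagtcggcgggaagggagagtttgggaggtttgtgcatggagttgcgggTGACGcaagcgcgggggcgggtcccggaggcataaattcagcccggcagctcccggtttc
Dusp1, chr17:26508473-26508622, minus strand: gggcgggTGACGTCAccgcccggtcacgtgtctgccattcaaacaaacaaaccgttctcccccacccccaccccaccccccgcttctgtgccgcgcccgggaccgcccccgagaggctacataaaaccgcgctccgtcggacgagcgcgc
Zfp36, chr7:28379229-28379378, minus strand: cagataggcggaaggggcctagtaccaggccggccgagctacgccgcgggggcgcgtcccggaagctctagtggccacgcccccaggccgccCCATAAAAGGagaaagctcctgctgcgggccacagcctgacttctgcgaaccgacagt

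The core TGACG was present in 4 of the 6 called members (*Fos*, *Fosb*, *Dusp1* and *Csrnp1*), in 14 of the 26 list members and in 15% of all genes. In *Fos* it began 129 and 66 bases before the start, and in *Fosb* 60 bases. The full TGACGTCA was found in *Dusp1*, 143 bases before the start, in 3 of the 26 members and in 1.58% of all genes. A CArG box was found in *Zfp36*, 58 bases before the start, in 2 of the 26 members and in 1.04% of all genes. These matches describe the letters in the windows, and binding was not measured.

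MicroRNA genes of one cluster on chromosome 8 were also called. The probe set of *Mir23a* had signals of 6.28, 6.74 and 6.22 in WT and 7.16, 7.04 and 7.22 in KO, and that of *Mir27a* had 6.53, 6.77 and 6.55 against 7.27, 7.20 and 7.28. The KO arrays lay close together and above WT replicate 2, the highest WT array in both. *Mir23a* rose by 0.73 (limma, adjusted p = 0.0262) and *Mir27a* by 0.64 (adjusted p = 0.0187). *Mir24-2*, of the same cluster, had 6.50, 6.30 and 6.11 in WT and 6.53, 6.44 and 6.50 in KO, and its difference of 0.19 did not pass (adjusted p = 0.41). Probe sets of this array report RNA from the microRNA gene and not the mature microRNA. The major mature products are printed, from RefSeq (GRCm38.p6), because they are what the cluster makes, with bases 2 to 8, the seed that pairs with target messages, in capitals.
miR-23a-3p, chr8:84208563-84208583, plus strand: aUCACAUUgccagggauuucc
miR-27a-3p, chr8:84208727-84208747, plus strand: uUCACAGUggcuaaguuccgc

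Both seeds open with UCACA and then part, so that the pair forms separate seed families. Other called microRNA genes were *Mir329*, with a rise of 0.63 (limma, adjusted p = 0.0481), and *Mirlet7f-2*, with 0.47 (adjusted p = 0.0383). Their mean signals of 4.23 and 3.40 were low on this array. All the microRNA genes given, *Mir24-2* included, fell outside the rule for named genes and were chosen after their values were seen.

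Most subunits of the respiratory chain had small positive differences, and none of them passed the test except the deleted one. Of 34 measured subunits of complex I, which oxidizes NADH, none was called, 31 had positive differences, 23 had all KO arrays above all WT arrays (beside 12.3% of all genes), and the median was 0.20. All 10 measured subunits of complex III were positive (median 0.24, none called), as were all 18 of complex V, the ATP synthase (median 0.16, none called). Of 15 measured subunits of complex IV other than *Cox6a2*, 12 were positive and 10 had KO arrays wholly above WT (beside 12.3% of all genes), with a median of 0.16 and none called. Of 4 subunits of complex II, 3 were positive, with a median of 0.21 and none called. For comparison, 46.5% of all genes were positive, and in the brightest of 4 equal groups of genes the median difference was 0.06.

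*Uqcr10*, a small subunit of complex III, gives an example. Its signals were 9.59, 9.54 and 9.51 in WT and 10.03, 9.94 and 10.19 in KO, a difference of 0.51 (limma, standard error 0.12, adjusted p = 0.0683). *Atp5k*, a subunit of the membrane part of complex V, had 9.75, 9.75 and 9.74 in WT and 10.29, 10.41 and 10.13 in KO, a difference of 0.53 (adjusted p = 0.0597). In complex IV, *Cox5a* had 10.42, 10.42 and 10.62 in WT and 10.88, 10.89 and 10.85 in KO, a difference of 0.39 (adjusted p = 0.0975). The groups were separate for each of these genes, and none passed the test. *Uqcr10* passed once the arrays labelled WT diaphragm were dropped (adjusted p = 0.0436) and after median centring (adjusted p = 0.0403), and *Atp5k* passed in 3 of the other fits. In complex IV the muscle form *Cox7a1* differed by 0.27 (adjusted p = 0.173), and in complex I *Ndufab1* by 0.38 (adjusted p = 0.091) and *Ndufa1* by 0.39 (adjusted p = 0.132), with no overlap of the arrays.

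Genes that build the respiratory chain had differences of similar size. All 14 assembly factors of complex I were positive, with a median of 0.21, none called, and *Ndufaf2* at 0.61 (limma, adjusted p = 0.0902). Of 22 assembly factors of complex IV, 19 were positive, with a median of 0.16, none called, and *Cmc2*, a copper-related assembly factor, at 0.55 (adjusted p = 0.102). Of 75 proteins of the mitochondrial ribosome, 69 were positive and 43 had KO arrays wholly above WT (beside 12.3% of all genes), with a median of 0.18 and none called. Of 22 genes of mitochondrial protein import, 21 were positive, with a median of 0.21 and none called. Among 26 genes of pyruvate dehydrogenase and the citric acid cycle, 24 were positive, with a median of 0.12 and none called. The proteins of the cytosolic ribosome, 48 measured, had a median of 0.07, with 35 positive and none called.

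The shared direction was visible in each array. The mean log2 signal over the 34 subunits of complex I was 9.92, 9.92 and 9.96 in WT and 10.15, 10.15 and 10.13 in KO. The same mean over the 75 mitochondrial ribosomal proteins was 8.20, 8.23 and 8.20 in WT and 8.40, 8.39 and 8.37 in KO. In both lists the KO arrays lay above all WT arrays by more than the spread within a group. The medians kept their sign in all fits, between 0.15 and 0.26 for complex I and between 0.11 and 0.24 for the mitochondrial ribosome, the extremes being quantile normalization and median centring.

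**Figure D3:**
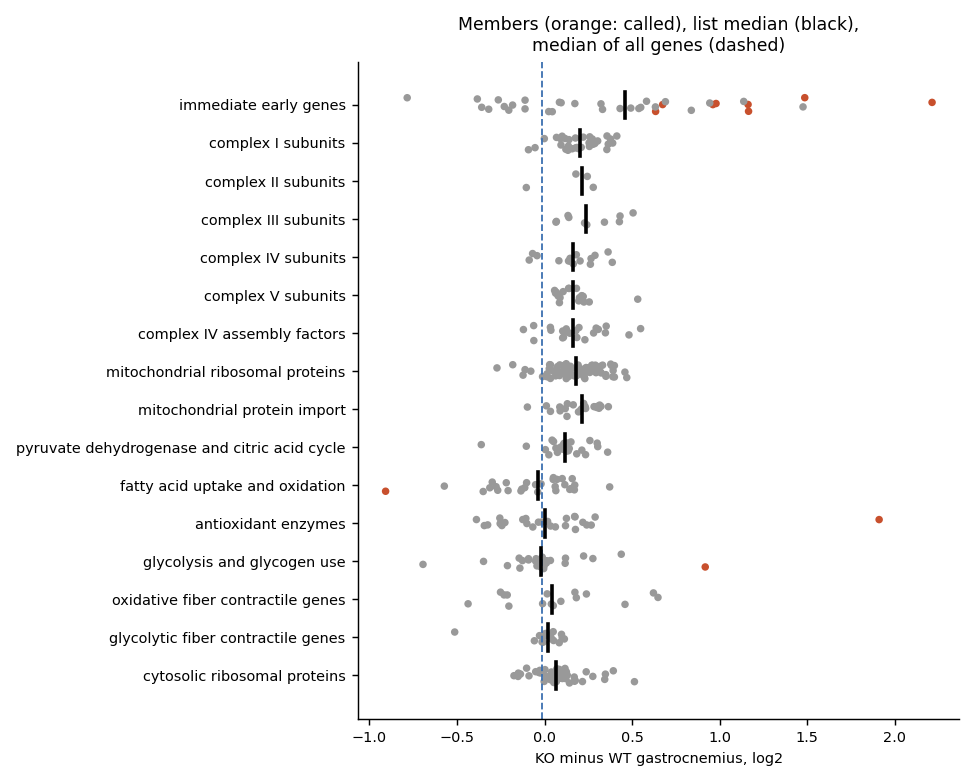
Difference KO minus WT gastrocnemius on the log2 scale (horizontal axis) for the members of 16 gene lists (vertical axis), where each point is a gene, orange marks called genes, black marks list medians and the dashed line is the median of all genes, -0.01. Medians of the respiratory chain lists and of mitochondrial ribosomal proteins lie between 0.16 and 0.24 with no gene called, whereas 8 immediate early genes were called.

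Regulators of mitochondrial biogenesis did not pass the test. Of 21 measured, 15 were positive with a median of 0.14, which became 0.07 without WT replicate 1 and 0.08 without KO replicate 2. *Ppargc1a*, the coactivator that drives mitochondrial biogenesis, had signals of 8.04, 8.01 and 7.94 in WT and 8.29, 8.98 and 8.73 in KO. The arrays did not overlap, but the KO arrays were spread widely, and the difference of 0.67 had a 95% interval from 0.05 to 1.30 (limma, adjusted p = 0.27). Its relative *Ppargc1b* differed by 0.51 (adjusted p = 0.153), and *Tfb1m*, which encodes a mitochondrial ribosomal RNA methyltransferase, by 0.43 (adjusted p = 0.108).

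Uncoupling proteins, which let protons return across the inner membrane or transport metabolites, did not pass the test. *Ucp1*, the uncoupler of brown fat, had low signals of 4.43, 3.96 and 4.55 in WT and 4.11, 4.14 and 3.93 in KO, a difference of -0.25 (limma, adjusted p = 0.378). *Ucp3*, the muscle member, had 8.67, 9.48 and 8.92 in WT and 8.79, 9.56 and 9.77 in KO, a difference of 0.35 (adjusted p = 0.594) with a 95% interval from -0.30 to 1.00. The groups overlapped in both genes. *Ucp2*, and *Fndc5*, which encodes the precursor of irisin, had no single-symbol probe set and were not analysed here.

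Among genes of mitochondrial shape, *Gdap1* was the one that was called. Its product sits in the outer membrane and takes part in fission. The signals were 5.76, 5.97 and 6.06 in WT and 7.67, 7.13 and 7.52 in KO, and the rise was 1.51 (limma, standard error 0.19, adjusted p = 0.0016). The fusion genes *Mfn1* and *Opa1* differed by 0.09 (adjusted p = 0.652) and 0.15 (adjusted p = 0.451). Over the 12 measured genes of fusion and fission, 10 were positive.

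Of 35 measured mitochondrial carriers of the SLC25 family, 1 rose and none fell, with a median of 0.06. *Slc25a25*, an ATP-magnesium/phosphate carrier regulated by calcium, had signals of 7.27, 8.75 and 7.94 in WT and 9.24, 10.14 and 10.16 in KO. WT replicate 2 stood well above the other WT arrays yet below all KO arrays, and the rise was 1.86 (limma, standard error 0.33, adjusted p = 0.0262). *Ddit4*, which encodes an inhibitor of mTORC1 and responds to stress and glucocorticoids, was likewise high on WT replicate 2, with 6.93, 7.82 and 6.86 in WT and 8.19, 9.26 and 9.09 in KO. It rose by 1.64 (limma, standard error 0.27, adjusted p = 0.0181). On WT replicate 2 the mean of the 34 measured genes of glucocorticoid response and atrophy was 9.13, beside 8.60 and 8.65 on the other WT arrays and 8.75, 9.02 and 8.82 on the KO arrays, and its part in these results was not tested. Of that list 1 gene, *Ddit4*, was called, and the median was 0.05.

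Fuel use showed single called genes in lists that were otherwise centered near 0. *Ppp1r3c*, which targets protein phosphatase 1 to glycogen and favors glycogen synthesis, had 10.13, 10.52 and 10.24 in WT and 11.01, 11.25 and 11.38 in KO. It rose by 0.92 (limma, standard error 0.16, adjusted p = 0.0206), the only call among 27 genes of glycolysis and glycogen use, whose median was -0.02. *Acot2*, a mitochondrial acyl-CoA thioesterase, had 9.15, 9.89 and 9.15 in WT and 8.32, 8.70 and 8.46 in KO. It fell by 0.91 (limma, standard error 0.19, adjusted p = 0.0485), with WT replicate 2 highest, and was the only call among 29 genes of fatty acid uptake and oxidation, whose median was -0.04. The call of *Acot2* was lost in 12 of the 15 other limma fits, among them the 6 gastrocnemius arrays alone and each fit that left out 1 array.

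Metabolic enzymes outside these lists were called too, and those named next were chosen after their values were seen. *Me3*, the mitochondrial malic enzyme that makes NADPH, had 8.89, 8.72 and 8.81 in WT and 9.61, 9.55 and 9.45 in KO and rose by 0.73 (limma, adjusted p = 0.0073). *Ampd1*, the AMP deaminase of skeletal muscle, had 11.92, 11.75 and 12.06 in WT and 12.45, 12.37 and 12.52 in KO and rose by 0.54 (adjusted p = 0.0383). *Slc37a4*, the glucose 6-phosphate transporter of the endoplasmic reticulum, had 9.36, 9.34 and 9.51 in WT and 9.98, 9.83 and 10.13 in KO and rose by 0.57 (adjusted p = 0.0235). In all of these the groups were separate and the change was under 2-fold. *Mmut*, methylmalonyl-CoA mutase and likewise chosen afterwards, rose by 0.52 (adjusted p = 0.0383).

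Insulin signalling and AMPK genes had no calls. Of 20 measured genes of insulin signalling and glucose uptake, 6 were positive, with a median of -0.11. The lowest member, *Tbc1d1*, named for that place, differed by -1.03 and was not called. *Slc2a4*, the insulin-responsive glucose transporter GLUT4, had 11.04, 11.01 and 11.15 in WT and 11.22, 11.24 and 11.17 in KO, a difference of 0.15 (limma, adjusted p = 0.416) with a 95% interval from -0.04 to 0.34. *Irs2*, an insulin receptor substrate, differed by 0.58 (adjusted p = 0.091) and *Akt1*, a kinase downstream of it, by -0.35 (adjusted p = 0.0937), each without overlap of the arrays. *Irs2* passed when the 6 gastrocnemius arrays were fitted alone (adjusted p = 0.0332). Among 9 genes of AMPK and its kinases, *Prkag3*, the regulatory subunit of glycolytic muscle, had 9.25, 9.14 and 9.58 in WT and 9.84, 9.74 and 9.94 in KO, a difference of 0.52 (adjusted p = 0.128).

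Contractile genes of either fiber type were not called. The 16 genes of oxidative fibers had a median of 0.04 and the 16 of glycolytic fibers one of 0.02. *Casq2*, the calsequestrin of slow and cardiac muscle, had 7.34, 7.57 and 7.69 in WT and 7.94, 8.22 and 8.31 in KO, a difference of 0.62 (limma, adjusted p = 0.0868). *Mylk4* of the glycolytic list differed by -0.51 (adjusted p = 0.199). The mean over the oxidative list ranged from 9.66 to 10.18 in WT and from 9.82 to 10.31 in KO and overlapped.

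Iron and stress genes gave a few more calls. *Tfrc*, the transferrin receptor that brings iron into cells, had 9.07, 9.26 and 9.05 in WT and 10.29, 10.26 and 10.53 in KO. It rose by 1.24 (limma, standard error 0.13, adjusted p = 3.6e-04), the only call among 22 genes of iron, heme and myoglobin, whose median was 0.09. *Dnajb1*, an HSP40 co-chaperone, had 6.55, 6.40 and 6.80 in WT and 7.23, 7.10 and 7.25 in KO and rose by 0.61 (adjusted p = 0.0392), the only call among 17 heat shock proteins, whose median was 0.18. Genes of the integrated stress response and mitokines, 23 measured, had no calls, with 5 positive and a median of -0.13, or -0.20 without KO replicate 2. Of these *Atf5* differed by 0.35 (adjusted p = 0.129) and *Psph* by 0.40 (adjusted p = 0.14).

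Antioxidant enzymes showed 1 call among 26 measured genes, a median of 0.00 and 13 positive members. *Nnt*, the inner membrane transhydrogenase that makes NADPH from the proton gradient, had 8.10, 8.47 and 8.30 in WT and 10.12, 10.42 and 10.07 in KO. It rose by 1.91 (limma, standard error 0.16, adjusted p = 6.8e-05), or 3.76-fold, the second largest rise after *Fos*. The C57BL/6J strain, the strain of the WT mice, is known to carry a deletion within *Nnt*, so that the rise and the strain cannot be told apart.

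Further genes that rose by more than 2-fold had varied roles. *Otud1*, a deubiquitinase, rose by 1.24 (limma, adjusted p = 0.0392), and *Kbtbd12*, a Kelch and BTB domain protein, by 1.01 (adjusted p = 0.0383). *Ehd3*, which acts in endosome recycling, had 5.97, 6.33 and 6.17 in WT and 7.51, 7.30 and 7.18 in KO and rose by 1.17 (adjusted p = 2.2e-04). *Iqgap2*, a scaffold of the cytoskeleton, had 6.16, 6.08 and 5.63 in WT and 6.90, 7.08 and 6.91 in KO and rose by 1.01 (adjusted p = 0.006). Among rises under 2-fold, chosen after their values were seen, *Id1*, an inhibitor of helix-loop-helix transcription factors, rose by 0.75 (adjusted p = 0.0072), *Rhob*, a small GTPase, by 0.80 (adjusted p = 0.0143), and *Map2k6*, which activates p38 MAP kinase, by 0.79 (adjusted p = 0.0235).

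Among the genes that fell, *Trim12a*, of a family of antiviral restriction factors, had the largest change after *Cox6a2*. Its signals were 5.13, 5.11 and 5.51 in WT and 3.65, 3.51 and 3.35 in KO, and it fell by 1.75 (limma, standard error 0.18, adjusted p = 3.5e-04). *Nnat*, the imprinted gene of neuronatin, had 7.11, 6.41 and 5.97 in WT and 5.23, 5.19 and 5.44 in KO. The WT arrays were spread over more than 2-fold while the KO arrays lay together below them, and *Nnat* fell by 1.22 (standard error 0.20, adjusted p = 0.0187). It was the only call among 16 imprinted growth genes.

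*Tpbgl* had 9.83, 9.59 and 9.59 in WT and 8.69, 8.61 and 8.50 in KO and fell by 1.07 (limma, standard error 0.09, adjusted p = 9.7e-05). *Slc7a2*, a transporter of cationic amino acids, had 8.96, 8.99 and 9.29 in WT and 8.14, 8.39 and 8.31 in KO and fell by 0.80 (adjusted p = 0.0073). *Cacng7*, of the family of calcium channel gamma subunits, had 7.56, 7.85 and 7.56 in WT and 6.73, 6.71 and 6.74 in KO and fell by 0.93 (adjusted p = 5.1e-04). The KO arrays of *Cacng7* lay closest together among these. *Runx1*, a transcription factor known to rise in denervated muscle, had 6.64, 6.69 and 6.42 in WT and 6.13, 6.03 and 6.11 in KO and fell by 0.49 (adjusted p = 0.0392), the only call among 18 genes of the neuromuscular junction and denervation. *Myod1*, a regulator of myogenesis, differed by -0.58 (adjusted p = 0.0676) and *Sdc4*, a satellite cell gene, by 0.45 (adjusted p = 0.064), both without overlap.

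The rest of the 15 lowest called genes changed by about 2-fold or less. They included *Hbq1b*, a theta globin (-0.76, limma, adjusted p = 0.0014), *Snord15b*, a small nucleolar RNA (-0.71), *Galnt15*, a mucin-type glycosyltransferase (-0.71), *Polh*, a DNA polymerase of lesion bypass (-0.68), and *Myo7a*, an unconventional myosin (-0.68). For each of these the KO arrays lay below the WT arrays.

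*Serpina3n*, a secreted serine protease inhibitor, had 7.19, 7.17 and 6.52 in WT and 5.86, 5.88 and 5.94 in KO and fell by 1.07 (limma, standard error 0.20, adjusted p = 0.0319). *Gpnmb*, a glycoprotein of macrophages, had 6.89, 6.80 and 6.36 in WT and 5.80, 5.74 and 5.71 in KO and fell by 0.93 (standard error 0.16, adjusted p = 0.019). *S100a4*, a calcium-binding protein of fibroblasts and macrophages that was chosen after its values were seen, fell by 0.59 (adjusted p = 0.0272). In whole muscle, fewer cells of a type and less RNA per cell cannot be told apart.

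Markers of macrophages, adipocytes and tendon had mostly negative differences, and none was called. All 12 macrophage markers were negative, with KO wholly below WT in 6 (beside 11% of all genes), a median of -0.31 and a summed linear signal of 1585 to 2031 in WT and 1287 to 1528 in KO. *Cd68*, a macrophage lysosomal protein, had 7.51, 6.97 and 6.67 in WT and 6.21, 5.99 and 6.96 in KO, which overlapped, and a difference of -0.66 (limma, adjusted p = 0.202). All 10 measured adipocyte markers were negative as well, with a median of -0.31 and summed signals of 1743 to 2232 in WT and 1497 to 1750 in KO, and *Cidea*, a lipid droplet protein of brown fat, at -0.37 (adjusted p = 0.172). Of 12 markers of tendon and fibroblasts, 10 were negative, with a median of -0.37 and summed signals of 5593 to 8814 in WT and 4094 to 5096 in KO, and the median was -0.12 without WT replicate 1. *Thbs4*, a matrix protein of tendon and muscle, had 10.38, 10.08 and 9.85 in WT and 8.62, 9.17 and 9.34 in KO, a difference of -1.06 (adjusted p = 0.0727), and *Cilp2*, a matrix protein of cartilage and tendon, one of -0.57 (adjusted p = 0.117). The part of these cells in the lower genes was not tested.

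WT replicate 1 was the highest array for tendon and fibroblast markers, with a mean of 8.65 beside 8.11 and 8.10 on the other WT arrays and 7.78 to 8.02 in KO, and for the 23 genes of collagen and matrix, with 8.76 beside 8.36 and 8.29 and 8.29 to 8.43 in KO. The collagen list had no calls and a median of -0.05, which turned to 0.11 without WT replicate 1. WT replicate 3 was the highest for the 22 genes of the interferon response, with a mean of 6.77 beside 5.87 and 5.76 and 5.87 to 5.94 in KO, and the median of -0.22 turned to 0.02 without it. No interferon gene was called. Endothelial and smooth muscle markers had medians of -0.01 and -0.03, and those of B cells, T cells and neutrophils 0.01, -0.09 and -0.07. Markers of mesothelium, all 8 negative, and of Schwann cells, with 7 of 8 negative, had medians of -0.20 and -0.17, which became -0.12 without WT replicate 1 for mesothelium and -0.06 without WT replicate 3 or -0.08 without KO replicate 1 for Schwann cells.

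**Figure D4:**
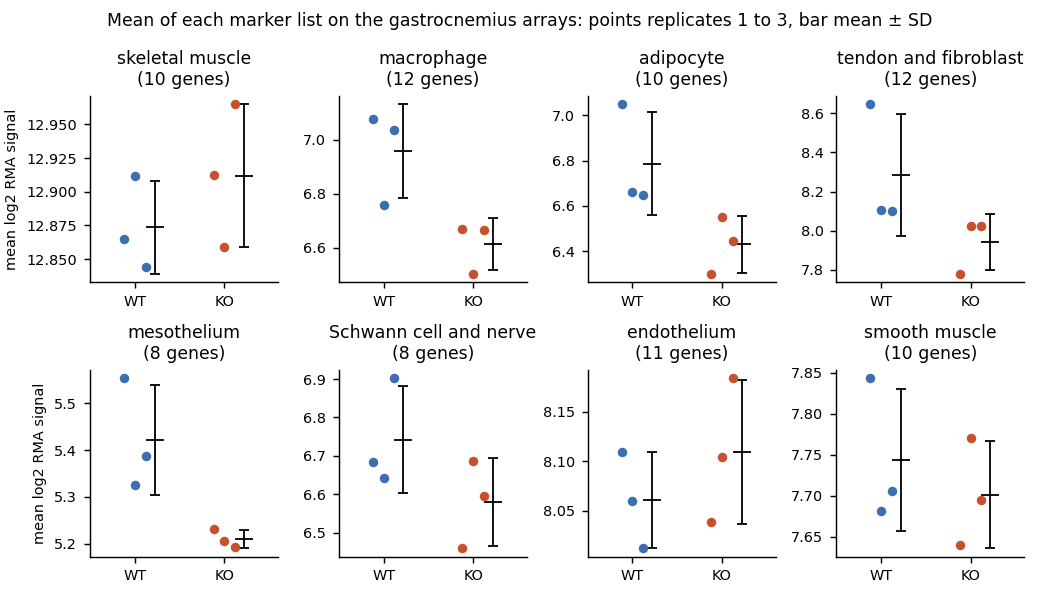
Mean log2 RMA signal (vertical axes, separate scales) of 8 marker lists on the 3 WT and 3 KO gastrocnemius arrays (horizontal axes), where points are arrays in replicate order and the bars show mean ± SD. The macrophage means of the KO arrays, 6.50 to 6.67, lie below those of the WT arrays, 6.76 to 7.08, whereas the skeletal muscle means overlap.

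Clock genes, which follow the time of day, had no calls among 17 measured, with a median of -0.11, which became -0.01, -0.06 and -0.02 without WT replicate 1, WT replicate 2 and KO replicate 1. The median hides differences of either sign, from *Per2* at -0.55 to *Arntl* at 0.79, both named for their places at the ends. An unadjusted limma p under 0.05 was reached by 4 members on the higher side and 3 on the lower (beside 8.11% and 8.34% of all genes). *Cry2*, a repressor of the clock, differed by -0.50 (limma, adjusted p = 0.091) and *Clock*, an activator, by 0.41 (adjusted p = 0.0912), with no overlap of the arrays. The hour at which tissue was taken is not given in the sources used here.

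Because the WT mice came from a supplier, genes known to vary among mouse strains were listed. The list was chosen with earlier results of these data known, so that its counts are a description and not a test. Of 15 measured, 3 rose and 1 fell, beside 0.406% and 0.186% of all genes. Besides *Nnt* and *Trim12a* these were *Glo1*, the glyoxalase that differs in copy number between strains, and *Wdfy1*, an endosomal adaptor. *Glo1* had 9.44, 9.51 and 9.49 in WT and 10.02, 9.99 and 10.02 in KO and rose by 0.53 (limma, standard error 0.08, adjusted p = 0.0118). *Wdfy1* had 6.14, 6.22 and 6.44 in WT and 6.92, 6.88 and 6.98 in KO and rose by 0.66 (adjusted p = 0.04). The KO arrays of both genes lay close together and above all WT arrays. In the other 6 arrays *Glo1* differed by -0.08 (limma, adjusted p = 0.512), with overlap of the arrays. There *Nnt*, *Trim12a* and *Wdfy1* were called in the same direction as in gastrocnemius, at 3.45, -1.69 and 0.72. In that comparison 16.3% of all genes were called higher and 11.2% lower. Its arrays labelled WT diaphragm resembled gastrocnemius, so that genotype and muscle cannot be told apart in these values.

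Called genes were unevenly placed along the genome. On chromosome 7, which holds *Cox6a2*, 22 of 1734 tested genes were called (1.27%), 10 of them higher and 12 lower, and on chromosome 17, 14 of 936 (1.5%), 11 higher and 3 lower. These chromosomes gave 36 of the 118 calls, 30.5%, from 2670 genes, beside 82 of 17268 (0.475%) on all the rest. The 36 include *Cox6a2* itself. Chromosome 17 had the highest share of all chromosomes, so that setting it apart with chromosome 7 favors this contrast, which was not tested. Chromosome 12 had 8 of 652 (1.23%), among them *Fos*. Gene order, from RefSeq for GRCm38.p6, was used for rank only.

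Of 10 stretches of chromosome 7 with nearly equal numbers of genes, the sixth held 7 calls among 173 genes, 2 higher and 5 lower, and the ninth, with *Cox6a2*, held 3, *Cox6a2* included. Over the whole chromosome 1.27% of tested genes were called, beside 0.592% of all genes, and the sixth stretch is named because it held the most. Several called genes were next to each other or nearly so in rank: *Rccd1* and *Hddc3* at ranks 856 and 858, *Tpbgl* and *Slco2b1* at 998 and 999, and *Plpp4* and *Wdr11* at 1518 and 1519. *Hddc3*, a predicted phosphohydrolase, had 6.95, 6.52 and 6.68 in WT and 8.33, 8.19 and 8.29 in KO and rose by 1.55 (limma, standard error 0.15, adjusted p = 2.0e-04). Its neighbor *Rccd1* rose by 0.53 (adjusted p = 0.0481). *Slco2b1*, an organic anion transporter, fell by 0.56 (adjusted p = 0.0169), in the same direction as *Tpbgl*. *Rccd1* and *Slco2b1* were chosen after their values were seen.

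*Cox6a2* itself had rank 1507. Of the 100 tested genes within 50 ranks on either side, 1 rose and 1 fell (beside 0.406% and 0.186% of all genes), with a median of -0.06. These were *Plpp4*, a lipid phosphate phosphatase, and *Wdr11*, a WD repeat protein, which lie 11 and 12 ranks away. *Plpp4* had 5.92, 5.90 and 5.53 in WT and 7.35, 7.27 and 7.497 in KO and rose by 1.59 (limma, standard error 0.15, adjusted p = 1.4e-04). *Wdr11* had 8.27, 8.18 and 8.03 in WT and 7.67, 7.42 and 7.40 in KO and fell by 0.67 (adjusted p = 0.0118). These adjacent genes thus changed in opposite directions. The 3 nearest genes on each side of *Cox6a2* differed by -0.30 to 0.10, and none was called.

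**Figure D5:**
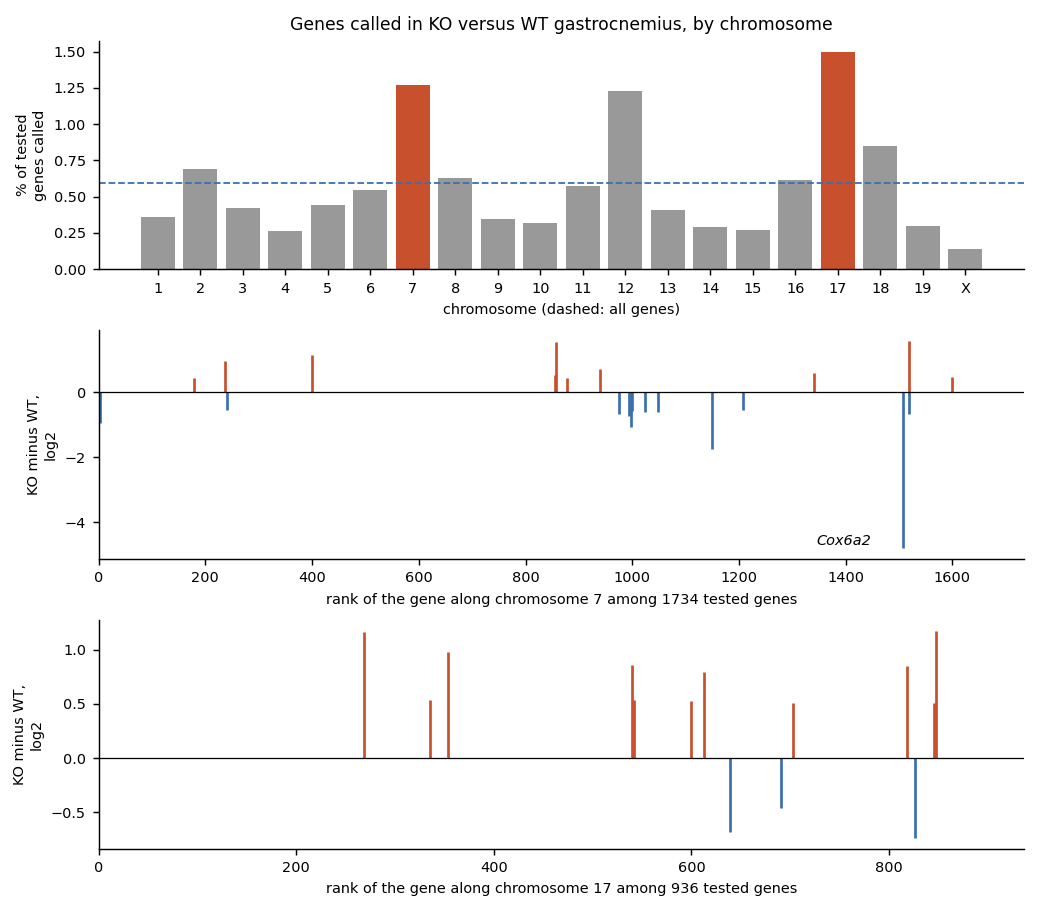
Share of tested genes called between KO and WT gastrocnemius on each chromosome (top, percent, with the share of all genes dashed), and the log2 difference of each called gene (vertical axes) against its rank along chromosomes 7 and 17 (horizontal axes), where orange is higher and blue lower in KO. Chromosomes 7 and 17 reach 1.27% and 1.5%, and *Cox6a2* stands at rank 1507 with -4.81.

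The other 6 arrays, which enter the calls above through the estimate of the spread, were read for the same genes. KO diaphragm was set against the arrays labelled WT diaphragm, where 16.3% of all genes were higher and 11.2% lower. Because the arrays labelled WT diaphragm resembled gastrocnemius, genotype and muscle cannot be told apart there. Of the 21 genes of chromosomes 7 and 17 that rose in gastrocnemius, 10 were called in the same direction there and 1 in the opposite one. Of the 14 that fell, without *Cox6a2*, 8 were called lower and 1 higher. For the other chromosomes, 24 of 60 higher genes were called higher and 11 lower, and 5 of 22 lower genes were called lower and 2 higher. *Trim12a*, *Hddc3*, *Tpbgl* and *Cacng7* were among the genes called in the same direction, at -1.69, 1.01, -2.16 and -1.39. The difference in KO minus WT between gastrocnemius and these 6 arrays passed the limma interaction test for 14.8% of all genes.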

How the data were processed

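Total muscle RNA (100 ng per array) was hybridized to 12 mouse Gene 1.0 ST arrays. Per the submitters' processing notes, the authors analyzed the scans with RMA in Affymetrix Expression Console, whose version is not given in the sources used here. The deposited values are therefore log2 signals, background-corrected, normalized between arrays and summarized per probe set, and ranged from 1.65 to 14.4. Of 35556 probe sets, the 21789 with 1 gene symbol were used, and for 999 genes with several the brightest was taken. Precision is set by the number of arrays, as no read depth exists, and residuals had a median SD of 0.138.

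Differences were fitted in R 4.3.3 with limma 3.58.1 (lmFit, eBayes) with group means of all 4 groups in 1 model, no covariate, 8 residual and 6.18 prior degrees of freedom, and Benjamini-Hochberg adjustment over 19938 genes. A gene is called at an adjusted p under 0.05. The single value of *Cox6a2* was also given an exact permutation test. Gene lists, 52 in number, are described by counts and medians and were not tested. The comparison, the lists and the named genes were chosen with earlier results of these data known. Named genes were *Cox6a2*, *Cox6a1*, the 15 highest and 15 lowest called genes without overlap of the arrays (predicted genes skipped), up to 6 called members of each list (for lists with no call, the 2 of smallest p), genes that the paper names for muscle, and called genes within 50 ranks of *Cox6a2*. Of the genes this rule allows, those with a role in the text are given.

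In simulated data with 19938 genes for KO minus WT gastrocnemius, the fit found 95 of 100 genes with a log2 change of 1 and 57 of 100 with one of 0.5, and made 8 false calls. The simulated noise was independent between genes, so that shifts shared by many genes on a single array, as seen above, were not represented. Alternatives were the 6 gastrocnemius arrays alone, 9 arrays with those labelled WT diaphragm dropped, the replicate number as a block (fixed, or random with statmod 1.5.0), quantile normalization, median centring, the trend and robust options of eBayes, genes at or above the median signal only, averaging a gene's probe sets, dropping each gastrocnemius array, and the methods' t-test. Promoter and microRNA sequences came from RefSeq for GRCm38.p6.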

Additional observations from a re-analysis of the deposited data

Results flagged for a closer look

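The difference between genotypes was also compared between the gastrocnemius arrays and the other 6 arrays, as gastrocnemius minus diaphragm (limma interaction, adjusted over all genes). It passed for 36 of 93 named genes, which were mostly chosen for their difference in gastrocnemius, and for 14.8% of all genes. The arrays labelled WT diaphragm carry the *Hoxc10* level of hindlimb muscle (8.68, beside 4.18 in KO diaphragm), so that genotype and muscle cannot be told apart on the diaphragm side of each value.

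For genes that rose in gastrocnemius, the difference of differences was 3.38 for *Gdap1* (1.51 in gastrocnemius and -1.87 in the other arrays), 2.98 for *Slc25a25* (1.86 and -1.13), 2.16 for *Ddit4*, 2.19 for *Slc37a4*, 2.04 for *Ampd1*, 1.62 for *Map2k6*, 1.49 for *Plpp4*, 1.48 for *Ppp1r3c*, 1.24 for *Tfrc*, 1.11 for *Ehd3* and 0.61 for *Glo1*. *Nnt* was higher in KO in both, by 1.91 and 3.45, with a difference of -1.53.

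For genes that fell, it was -1.90 for *Serpina3n*, -1.52 for *Snord15b*, -1.06 for *Galnt15*, -1.02 for *Acot2*, -0.86 for *Runx1*, -0.81 for *Hbq1b*, -0.77 for *Slco2b1*, -0.59 for *Myo7a* and -0.53 for *S100a4*. It was 1.09 for *Tpbgl*, 0.79 for *Slc7a2* and 0.46 for *Cacng7*, which were lower in KO on both sides and more so in the other arrays.

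Genes not called in gastrocnemius were among them too, with 3.22 for *Prkag3*, 2.86 for *Mylk4*, 2.77 for *Nr4a3*, 2.59 for *Ucp3*, 1.61 for *Nr4a1*, 0.65 for *Psph*, -0.43 for *Cox7a1*, -0.53 for *Mfn1*, -0.67 for *Akt1*, -1.81 for *Cidea*, -1.82 for *Cd68* and -2.44 for *Casq2*.

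Of the 13767 probe sets without a single gene symbol, which the comparison left out, 1 was called. Its signals were 4.08, 4.15 and 3.97 in WT and 5.32, 5.32 and 5.45 in KO, a difference of 1.30 (limma, adjusted p = 0.0073), with no gene name in the annotation used here.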

How the results depend on the processing

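*Cox6a2* stayed between -4.93 and -4.70 in all limma fits. By the methods' t-test its difference of -4.81 had the smallest adjusted p, 0.0511, and no gene passed after Benjamini-Hochberg adjustment (0 higher, 0 lower), while unadjusted p-values under 0.05 numbered 1557 among higher and 1151 among lower genes (limma 1617 and 1662). Higher and lower genes numbered 81 and 37 in the reported fit, 52 and 17 in the 6 gastrocnemius arrays alone, 57 and 20 without the arrays labelled WT diaphragm, 188 and 29 after median centring, 62 and 29 after quantile normalization, 89 and 37 with trend and robust, 110 and 26 in genes at or above the median signal, and 82 and 37 with the mean of probe sets. The 81 higher genes were all among the 188. Leaving out 1 array gave 24 to 45 higher and 8 to 36 lower genes. The cause of these shifts was not tested, and the fits that leave arrays out also rest on fewer arrays.

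The deviations of same-numbered KO and WT gastrocnemius arrays correlated at 0.00, -0.03 and -0.07, and those of differently numbered ones at -0.06 to 0.08. With 3 arrays per group these values cannot exclude a pairing. Whether gastrocnemius and diaphragm arrays of a genotype came from the same mice was not examined. With the replicate number as a fixed block 65 genes were higher and 28 lower, and as a random block 68 and 29.

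Of 51 named genes that were called, 17 kept their call in every limma fit and 27 in those with all gastrocnemius arrays, and none changed sign. Leaving out WT replicate 1, 2 or 3 ended 27, 21 and 21 of the 51 calls, and KO replicate 1, 2 or 3 ended 29, 30 and 29. Of 42 named genes not called, 9 were called in some fit. Of 779 list medians under the alternatives, 82 moved by more than the spread between arrays, 27 of them after median centring and 20 after quantile normalization. No direction is read from medians near 0 that changed sign in 1 to 4 of the fits. These were the medians of glucocorticoid response, glycolysis, fatty acid oxidation, antioxidant enzymes, both fiber types, collagen, B cells, T cells, endothelium and smooth muscle. The interferon median of -0.22 was larger but changed sign in 1 fit, without WT replicate 3, and no direction is read from it either. The medians of immediate early genes, the respiratory chain lists, mitochondrial ribosomal proteins and macrophage, adipocyte and tendon markers kept their direction. Without single arrays the median moved by more than 1.5 times for clock, mitochondrial biogenesis, stress response, mesothelium, Schwann cell and tendon genes, as given with them, and for other small medians, such as SLC25 carriers (0.06, or 0.11 without WT replicate 3), iron genes (0.09, or 0.05 without KO replicate 1), cytosolic ribosomal proteins (0.07, or 0.02 without WT replicate 1), skeletal muscle markers (0.05, or 0.01 without KO replicate 3), T cells (-0.09, or -0.03 without WT replicate 1) and neutrophils (-0.07, or -0.01 without WT replicate 1).

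With 3 arrays per group, differences near 0.5 on the log2 scale were detectable for only part of the genes, so that an uncalled gene is not shown to be equal. The difference between WT supplier mice and the KO line, the arrays labelled WT diaphragm that share the estimate of the spread, and single WT arrays that stand high for some lists limit what these values can say.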

Other observations

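Several further groups were measured and held no called gene in gastrocnemius. Of 17 mitochondrial chaperones and proteases, 12 were positive, with a median difference of 0.10 on the log2 scale. Of 31 proteasome subunits, which degrade ubiquitinated proteins, 9 were positive, with a median of -0.05. The 18 chaperones of the endoplasmic reticulum had a median of -0.04 and the 23 regulators of fiber type one of 0.00. Of 19 genes of myogenesis and satellite cells, 7 were positive, with a median of -0.06. Apart from the mitochondrial chaperones, these medians changed sign in at least 1 of the other fits.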
